A study of Mus musculus with 18 samples.

Results

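The 8 genes described here encode the proteins that make, hold back and release the sterol regulatory element-binding proteins (SREBPs), together with an enzyme that removes lipoprotein receptors from the cell surface. They are *Srebf1*, *Srebf2*, *Scap*, *Insig1*, *Insig2*, *Mbtps1*, *Mbtps2* and *Mylip*. They were picked by name, with earlier results of these data known, and all 8 were found among the 22524 genes counted in liver and among the 13353 genes that passed the filter on low counts. In the A226Y mice, *Srebf1*, *Srebf2* and *Insig1* fell, *Insig2* and *Mbtps2* rose, and the differences of *Scap*, *Mbtps1* and *Mylip* did not pass the test.

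*Srebf1* and *Srebf2* encode SREBP-1 and SREBP-2, transcription factors that are made as precursors in the membrane of the endoplasmic reticulum, where SCAP binds them. When sterols are low, SCAP escorts the precursors to the Golgi, where site-1 protease (*Mbtps1*) and site-2 protease (*Mbtps2*) release the part that enters the nucleus and switches on cholesterol and fatty acid synthesis. When sterols are high, INSIG1 or INSIG2 keeps SCAP in the endoplasmic reticulum. *Mylip* (also called Idol) encodes a ubiquitin ligase that marks lipoprotein receptors for degradation and is itself a target of the sterol-sensing liver X receptors (LXRs). In liver, *Insig1* is a target of the SREBPs, whereas transcripts of *Insig2* and of *Srebf1* are known to respond to feeding and insulin.

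Liver RNA came from 10 female A226Y mice and 8 female wild-type (WT) mice of the C57BL/6 strain, all 15 months old, with 1 library for each mouse. A226Y mice were heterozygous for a knock-in allele of *Rps2*, which encodes a protein of the small ribosomal subunit, and the substitution lowers the accuracy of translation. The allele carries a STOP cassette between *loxP* sites that Cre removes. A226Y mice came from crosses with CMV-Cre mice, whose promoter drives Cre in all tissues, and the controls were Cre-expressing mice that were wild type at *Rps2*. Whether the A226Y mice still carried the Cre transgene was not given in the sources used here. Excision in A226Y mice was partial, so their livers were mosaics of cells with an expressed and with a silenced mutant allele, and the share of excised cells in each liver was not analysed here. Time of day and feeding at tissue collection were not given in the sources used here. Levels are given as CPM, the count of a gene scaled to the size of its library with the TMM method.

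Library totals were between 23850565 and 62126131 counts in A226Y and between 25869192 and 34918732 in WT. *Rps2*, read from both alleles together, lay below the lowest WT value in all 10 A226Y mice (log2 fold change −0.73, standard error (SE) 0.11, adjusted p = 0.000772), so no library went against its label. Both genotypes expressed all 8 hepatocyte markers examined, with a summed level of 71470 to 145000 CPM in A226Y and 83600 to 171400 CPM in WT. In one library of each genotype the profile stood apart: the mean correlation with the other libraries of its genotype was 0.966 for A226Y animal 29, against 0.982 to 0.987 for the others, and 0.974 for WT animal 33, against 0.979 to 0.985. Animal 29 had the lowest hepatocyte sum and the highest Kupffer cell sum (1334 CPM) of the A226Y mice, and animal 33 the highest leukocyte sum of all (771 CPM). Among the A226Y mice, animal 29 also had the lowest *Srebf2*, *Scap*, *Insig1* and *Mbtps1* and the highest *Insig2*, *Mylip* and *Mbtps2*. The called members are given with and without these libraries, and so are the list counts that changed when they were left out. In bulk liver, fewer cells of a type and less RNA per cell cannot be told apart.

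The 250 bases upstream of the RefSeq starts (GRCm38.p6) are printed below for the 4 members with the greatest changes, since the SREBP, NF-Y and Sp1 sites of genes in this pathway usually lie close to the start. *Srebf1* and *Insig2* each have 3 RefSeq starts, of which the first and the last are shown. Capitals mark the CCAAT box bound by NF-Y, the GGGCGG box bound by Sp1 and the palindromic E-box CACGTG, each searched on both strands, and each sequence runs 5′ to 3′ in the direction of its gene.
*Srebf2*, chr15:82147019-82147268, plus strand: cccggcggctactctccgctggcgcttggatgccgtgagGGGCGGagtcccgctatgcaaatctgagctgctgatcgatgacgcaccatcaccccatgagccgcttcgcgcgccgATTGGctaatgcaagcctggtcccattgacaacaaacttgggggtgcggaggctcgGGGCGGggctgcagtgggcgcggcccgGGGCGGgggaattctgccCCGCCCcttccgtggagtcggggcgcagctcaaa
*Insig1*, chr5:28071162-28071411, plus strand: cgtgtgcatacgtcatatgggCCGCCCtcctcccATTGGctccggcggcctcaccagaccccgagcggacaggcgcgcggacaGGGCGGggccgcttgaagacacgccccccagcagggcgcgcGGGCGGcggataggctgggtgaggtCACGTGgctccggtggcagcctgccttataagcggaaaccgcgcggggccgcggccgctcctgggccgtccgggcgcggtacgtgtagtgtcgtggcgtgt
*Srebf1*, the first start, chr11:60222582-60222831, minus strand: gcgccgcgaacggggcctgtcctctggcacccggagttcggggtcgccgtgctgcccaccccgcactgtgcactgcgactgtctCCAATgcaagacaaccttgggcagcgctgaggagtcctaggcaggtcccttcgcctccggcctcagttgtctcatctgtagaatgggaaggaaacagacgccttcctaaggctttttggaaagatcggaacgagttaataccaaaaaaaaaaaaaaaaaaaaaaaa
*Srebf1*, the last start, chr11:60210472-60210721, minus strand: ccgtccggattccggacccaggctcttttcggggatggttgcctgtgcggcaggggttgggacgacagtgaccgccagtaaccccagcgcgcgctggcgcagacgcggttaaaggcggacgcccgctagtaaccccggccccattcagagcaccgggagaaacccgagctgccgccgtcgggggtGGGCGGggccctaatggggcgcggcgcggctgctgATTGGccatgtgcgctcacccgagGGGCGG
*Insig2*, the first start, chr1:121332590-121332839, minus strand: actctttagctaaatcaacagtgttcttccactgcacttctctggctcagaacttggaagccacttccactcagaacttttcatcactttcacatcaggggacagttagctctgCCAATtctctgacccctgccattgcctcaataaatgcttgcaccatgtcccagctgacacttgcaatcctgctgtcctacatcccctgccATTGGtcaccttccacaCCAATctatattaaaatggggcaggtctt
*Insig2*, the last start, chr1:121327679-121327928, minus strand: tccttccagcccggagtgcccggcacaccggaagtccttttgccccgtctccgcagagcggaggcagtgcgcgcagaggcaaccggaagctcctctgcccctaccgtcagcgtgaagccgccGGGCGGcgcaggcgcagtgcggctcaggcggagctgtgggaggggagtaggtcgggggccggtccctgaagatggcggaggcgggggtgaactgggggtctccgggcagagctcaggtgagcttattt

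None of these windows, and none of the 13 windows of the 8 members, held the core of a sterol regulatory element written as TCACNCCAC, which occurred in 1.05% of 32851 promoter windows of the same length. Only this exact spelling was searched, so variant sites were not counted. Its absence does not show that these genes lack sterol regulatory elements. The NF-Y box was present at 6 of the 13 member starts, against 33.8% of all windows, and the Sp1 box at 9 of 13, against 32.7%. The E-box was present at 2 of 13, against 6.02%. No 2 matches overlapped. *Insig1* carried the E-box between 101 and 96 bases upstream of its start, with 1 NF-Y box and 3 Sp1 boxes, and *Srebf2* carried 4 Sp1 boxes and 1 NF-Y box. The first start of *Insig2* had 3 NF-Y boxes and no Sp1 box, and the last had 1 Sp1 box and no NF-Y box. The counts were made per gene, so the starts of one gene cannot be told apart in the values that follow, and a match of letters is not a test of binding.

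Of the 8 members, 5 passed an adjusted p of 0.05 in edgeR's quasi-likelihood test, 2 of them higher and 3 lower in A226Y. Among all tested genes 14.3% passed, 7.27% higher and 7.03% lower. The median log2 fold change was −0.10 over the members and −0.0044 over all tested genes. For no member were the CPM values of the groups fully separate, which was the case for 0.637% of all genes. With animals 29 and 33 both left out, 5 members passed, and they were the same 5, while 17.8% of 13269 tested genes passed. With surrogate variables as covariates, 1 member, *Insig2*, and 248 of all tested genes passed, against 5 and 1910.

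**Figure D1:**
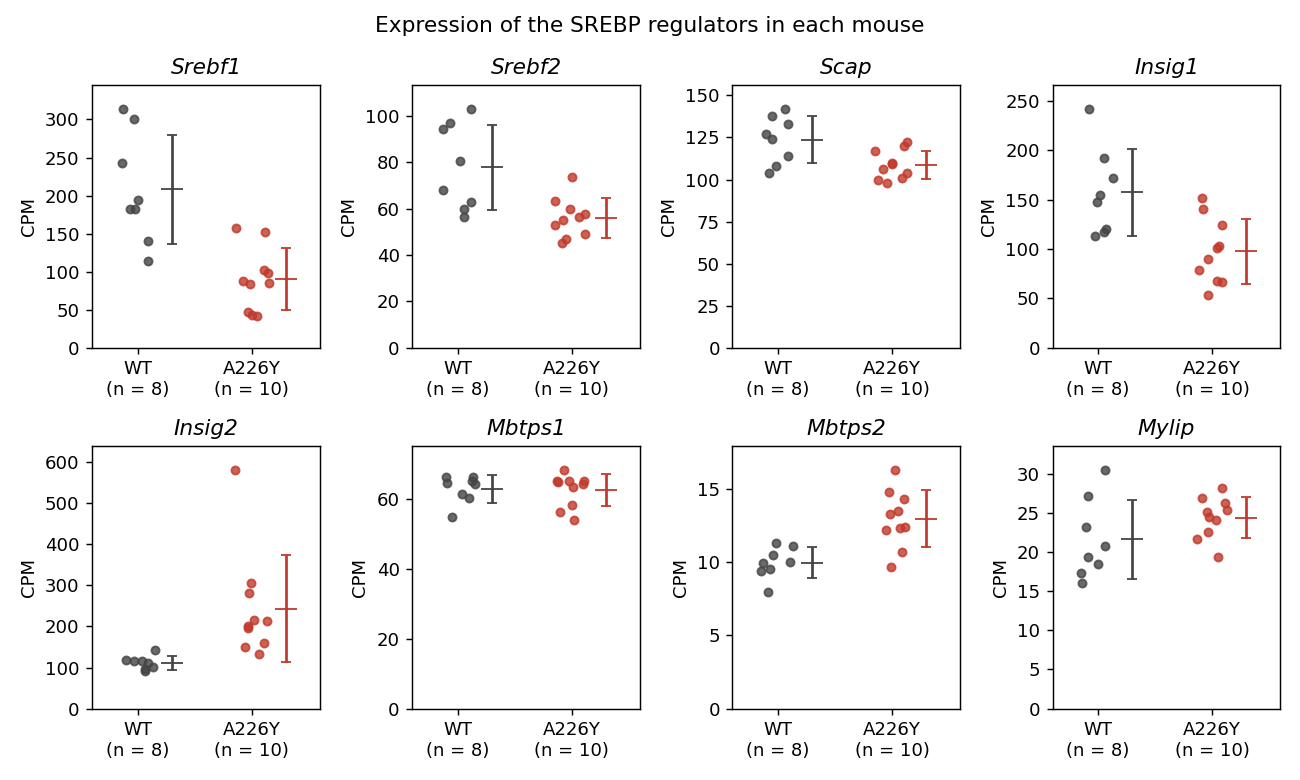
Level of each member (CPM, linear axes from 0) in every mouse, with WT mice in grey and A226Y mice in red. Points are single mice, and the bar beside them is the mean ± SD; *Srebf1*, *Srebf2* and *Insig1* sat lower in A226Y, *Insig2* and *Mbtps2* higher, and one A226Y mouse reached 582 CPM for *Insig2*.

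*Srebf1* (ENSMUSG00000020538, chr11:60199089-60222581 of GRCm38, minus strand) showed the greatest decrease of the 8. It ranged from 42.3 to 158 CPM with a median of 86.3 in A226Y, and from 113 to 314 CPM with a median of 188 in WT. The groups overlapped, but 8 of 10 A226Y mice lay below every WT mouse and all 10 below the WT mean. The mean level was 89.8 ± 40.7 CPM (SD, n = 10) against 209 ± 71.9 CPM (SD, n = 8). This amounted to a 2.32-fold lower level in A226Y, with a log2 fold change of −1.22 (SE 0.26, adjusted p = 0.00551). A two-sided exact permutation test of mean log2 CPM gave p = 0.000549. Of all tested genes, 98.9% had a smaller absolute log2 fold change. Its exons share 109 bases with the opposite-strand gene *Rai1*, and the counts are not stated to use strand. Levels varied widely within each genotype, with a coefficient of variation of 45.3% in A226Y and 34.5% in WT. Left without animals 29 and 33, the comparison gave −1.10 (adjusted p = 0.00928). With surrogate variables as covariates it was −0.66 and did not pass (adjusted p = 0.135).

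*Srebf2* (ENSMUSG00000022463, chr15:82147181-82205379, plus strand) fell by less. It lay between 45.0 and 73.8 CPM with a median of 55.6 in A226Y, and between 56.4 and 103 CPM with a median of 74.3 in WT. The groups overlapped, with 6 A226Y mice below every WT mouse and all 10 below the WT mean. The log2 fold change was −0.47 (SE 0.12, adjusted p = 0.0151), and the exact permutation test gave p = 0.00377. The 2 transcription factors did not move equally: the ratio of *Srebf1* to *Srebf2* within a mouse had a median of 1.59 in A226Y and 2.45 in WT, a difference of −0.83 on the log2 scale (two-sided exact permutation test, p = 0.0126, adjusted p = 0.0168 over 28 pairs of members). Without animals 29 and 33 the log2 fold change of *Srebf2* was −0.37 (adjusted p = 0.0358). It was −0.40 with an offset for GC content (adjusted p = 0.0544) and −0.42 with surrogate variables (adjusted p = 0.115), and passed with neither.

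*Scap* (ENSMUSG00000032485, chr9:110333288-110384950, plus strand), the escort of both factors, lay between 98.2 and 122 CPM with a median of 108 in A226Y and between 104 and 142 CPM with a median of 126 in WT. The groups overlapped, with 4 A226Y mice below every WT mouse, 5 WT mice above every A226Y mouse, and all 10 A226Y mice below the WT mean. The log2 fold change was −0.19 with a 95% interval of −0.33 to −0.04 and did not pass the test over all genes (adjusted p = 0.0705). It passed under DESeq2 (adjusted p = 0.0477), with an offset for transcript length (adjusted p = 0.047) and without WT animal 28 (adjusted p = 0.0357).

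The 2 INSIG genes, whose products hold SCAP back, changed in opposite directions. *Insig1* (ENSMUSG00000045294, chr5:28071363-28078662, plus strand) ranged from 53.4 to 152 CPM with a median of 95.2 in A226Y and from 113 to 242 CPM with a median of 152 in WT. The groups overlapped, with 7 A226Y mice below every WT mouse and all 10 below the WT mean. Its level was 97.6 ± 33 CPM (SD, n = 10) against 157 ± 44.1 CPM (SD, n = 8), a log2 fold change of −0.69 (SE 0.19, adjusted p = 0.0227, exact permutation p = 0.00437). The log2 fold change of *Insig1* was −0.57 without WT animal 14 (adjusted p = 0.0605) and −0.64 without WT animal 24 (adjusted p = 0.0511), and passed in neither case. Its log2 fold change was −0.63 without animals 29 and 33 (adjusted p = 0.0294).

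*Insig2* (ENSMUSG00000003721, chr1:121304353-121332589, minus strand) ranged from 132 to 582 CPM with a median of 208 in A226Y and from 90.9 to 143 CPM with a median of 113 in WT. Of the A226Y mice, 9 lay above every WT mouse, and the remaining one, animal 3, lay inside the WT range. The mean level was 244 ± 131 CPM (SD, n = 10) against 111 ± 16.3 CPM (SD, n = 8), a 2.19-fold higher level. The log2 fold change was 1.13 (SE 0.23, adjusted p = 0.00423, exact permutation p = 0.00016), and 98.7% of all tested genes had a smaller absolute change. The highest value was that of animal 29, and the next A226Y mouse had 306 CPM. Without animals 29 and 33 the log2 fold change of *Insig2* was 0.90 (adjusted p = 0.00197). The coefficient of variation was 53.8% in A226Y and 14.6% in WT, and 28.2% and 15.7% without animals 29 and 33, a difference that was not tested. *Insig2* was the one member that passed with surrogate variables (log2 fold change 0.92, adjusted p = 0.000777).

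**Figure D2:**
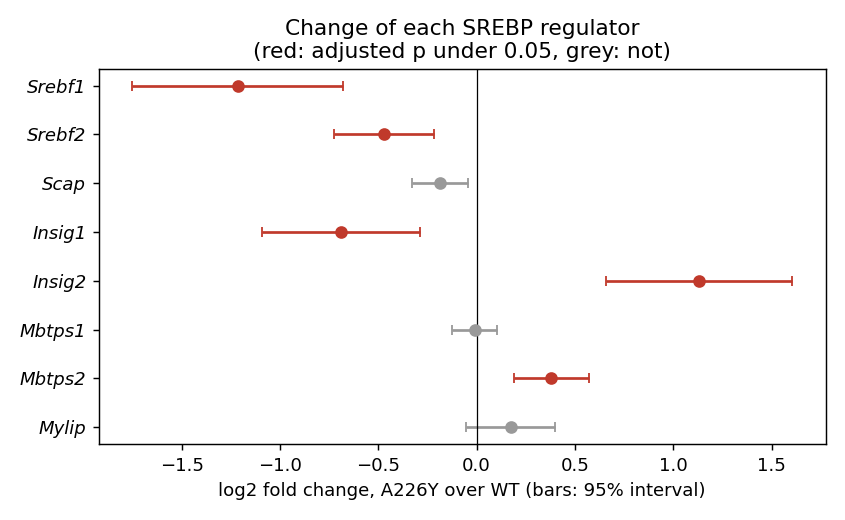
Log2 fold change of each member, A226Y over WT, from edgeR's fit over all genes, with bars for the 95% interval. Red points passed an adjusted p of 0.05 (*Srebf1*, *Srebf2*, *Insig1*, *Insig2*, *Mbtps2*), and grey points did not (*Scap*, *Mbtps1*, *Mylip*).

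Of the 2 proteases, *Mbtps2* rose and *Mbtps1* did not differ detectably. *Mbtps1* (ENSMUSG00000031835, chr8:119508156-119558735, minus strand) lay between 53.9 and 68.4 CPM with a median of 64.6 in A226Y and between 54.7 and 66.4 CPM with a median of 64.5 in WT. These ranges were nearly the same, and the log2 fold change of −0.01 had a 95% interval of −0.12 to 0.10 (adjusted p = 0.923). *Mbtps2* (ENSMUSG00000046873, chrX:157535371-157598715, minus strand) was the lowest member, with 9.65 to 16.3 CPM and a median of 12.8 in A226Y and 7.93 to 11.3 CPM and a median of 9.96 in WT. The groups overlapped in 2 A226Y mice, and the other 8 lay above every WT mouse. Its log2 fold change was 0.38 (SE 0.09, adjusted p = 0.0107, exact permutation p = 0.00142). The raw counts behind it were 230 to 909 in A226Y and 252 to 356 in WT. Its exons share 2867 bases with *Yy2* on the same strand, so reads there could be counted for either gene, and *Yy2* itself had a log2 fold change of 0.17 (adjusted p = 0.54). Without animals 29 and 33 the log2 fold change of *Mbtps2* was 0.36 (adjusted p = 0.0101), and with surrogate variables it was 0.31 (adjusted p = 0.083).

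*Mylip* (ENSMUSG00000038175, chr13:45389742-45412022, plus strand) ranged from 19.4 to 28.2 CPM with a median of 24.8 in A226Y and from 16.0 to 30.5 CPM with a median of 20.03 in WT. All 10 A226Y mice lay within the WT range. The log2 fold change of 0.17 had a 95% interval of −0.05 to 0.40 and did not pass the test (adjusted p = 0.296). In WT the spread of *Mylip* was wider than in A226Y, with coefficients of variation of 23.3% and 10.7%.

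Levels can be compared between genes only per length of transcript. In CPM per kilobase of exon, the order in WT was *Insig1* (50.9 ± 14.3, SD, n = 8), *Srebf1* (37.0 ± 12.8), *Insig2* (32.1 ± 4.68), *Scap* (16.6 ± 1.87), *Srebf2* (10.8 ± 2.57), *Mylip* (6.68 ± 1.55), *Mbtps1* (5.97 ± 0.38) and *Mbtps2* (0.99 ± 0.11). The ranges of neighbours overlapped except between *Insig2* and *Scap* and between *Mbtps1* and *Mbtps2*. In A226Y *Insig2* moved from the third place to the first at 70.2 ± 37.7 CPM per kilobase (SD, n = 10). It was followed by *Insig1* (31.6 ± 10.7), *Srebf1* (15.9 ± 7.22) and *Scap* (14.6 ± 1.14). The order of the other 4 genes was as in WT, and the ranges of neighbours overlapped except between *Scap* and *Srebf2* and between *Mbtps1* and *Mbtps2*.

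The balance between members within one mouse was examined after their single values had been seen. The ratio of *Srebf1* to *Insig2* (CPM over CPM) lay between 0.0807 and 1.19 in A226Y with a median of 0.434, and between 1.21 and 3.12 in WT with a median of 1.75. It was the one ratio of 28 for which the groups did not overlap. It differed by −2.28 on the log2 scale (two-sided exact permutation test, p = 9.14e-05, adjusted p = 0.000853 over 28 pairs). *Srebf1* and *Insig2* were the members with the greatest fall and the greatest rise. The difference in their ratio therefore follows from their single values and is no further support for them. The ratio of *Insig1* to *Insig2* had a median of 0.45 in A226Y, with a range of 0.0918 to 1.06, and of 1.3 in WT, with a range of 0.838 to 2.4. It differed by −1.73 on the log2 scale (exact permutation p = 0.000571, adjusted p = 0.00145). Animal 29 had the lowest value of both ratios, and without animals 29 and 33 the differences were −2.01 (exact permutation p = 0.000175, adjusted p = 0.00245) and −1.50 (exact permutation p = 0.0014, adjusted p = 0.00392). The ratio of *Srebf2* to *Insig1* differed by 0.27 and did not pass (exact permutation p = 0.133, adjusted p = 0.138). In all, 24 of the 28 ratios passed an adjusted p of 0.05, and 22 without these 2 animals. The share of such pairs among all tested genes was not computed. The ratio of *Srebf1* to *Srebf2* was among the 22 (−0.79, exact permutation p = 0.0291, adjusted p = 0.037), and the ratios share genes, so they are not independent.

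**Figure D3:**
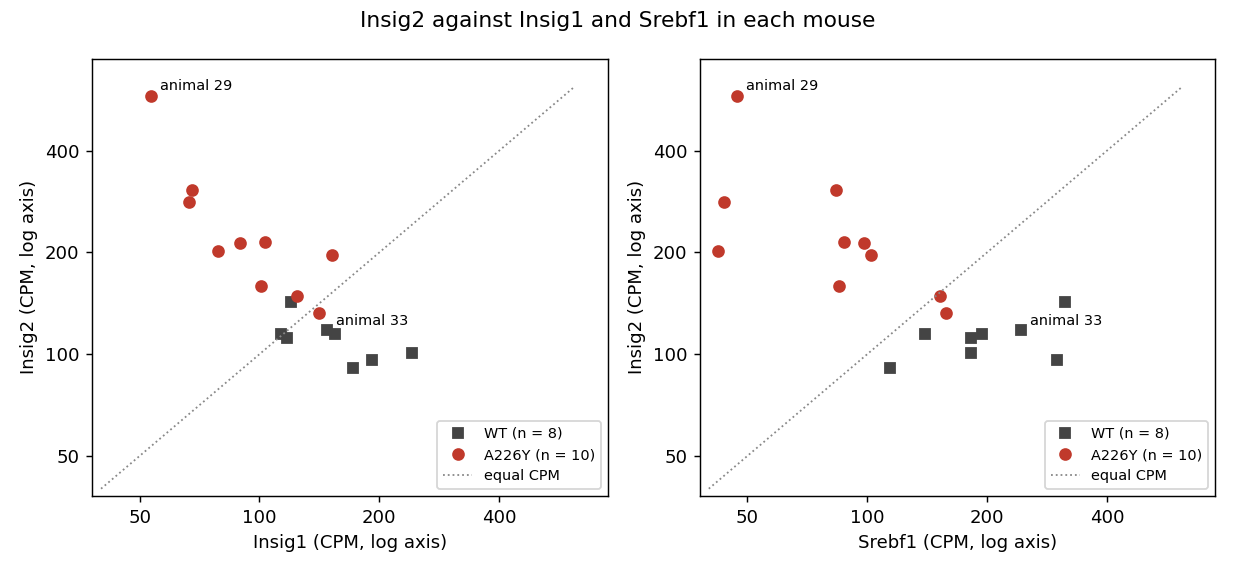
Level of *Insig2* against *Insig1* (left) and *Srebf1* (right) in each mouse, in CPM on log axes, with WT as grey squares, A226Y as red circles and equal CPM as a dotted line. Most A226Y mice lie above the line and most WT mice below it. The line takes no account of the different exon lengths of the genes, so it does not mark equal transcript levels. Animals 29 and 33, whose libraries stood apart, are named.

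Correlations between members were computed within each genotype (28 pairs in each of 2 genotypes, 56 in all). In A226Y, *Insig1* and *Insig2* ran against each other (Pearson r = −0.845, permutation p = 0.00074, adjusted p = 0.0414; Spearman rho = −0.818, permutation p = 0.00574, adjusted p = 0.107; n = 10). Without the 2 mice farthest from the median of *Insig1* the Pearson r was −0.925, and without animal 29 it was −0.791. In WT the same pair had r = −0.67 (exact permutation p = 0.0687, adjusted p = 0.296, n = 8). Whether r differed between the genotypes was not tested. No other of the 56 relations passed, among them *Srebf2* and *Insig1* in A226Y (r = 0.617, permutation p = 0.0572, adjusted p = 0.296, n = 10).

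For *Srebf1*, *Srebf2*, *Insig1*, *Insig2* and *Mylip*, and not for the other members, the genes that followed most closely over the 18 mice, after the mean of each genotype was removed, were sought among tested genes whose mean reached 1 CPM. The genes most like *Srebf2* included the sterol synthesis enzymes *Nsdhl* (r = 0.918), *Idi1* (0.89), *Cyp51* (0.877) and *Sqle* (0.868). Among the 5 most like *Insig1* were *Fdft1* (0.906), *Hmgcs1* (0.898) and *Stard4* (0.883), which act in sterol synthesis and sterol transport. No sterol enzyme was among the 5 most like *Srebf1*, which were *Car1* (0.876), *Car3* (0.858), *Atp23* (0.853), *Ghr* (0.848) and *Ptprf* (0.838). *Insig2* was followed by *Tbrg1* (0.912), *Slc17a9* (0.91), *H3f3b*, *Sec22b* and *Lrrc59* (0.881 each), and *Mylip* by *Hdlbp* (0.844), *Pqlc2* (0.826), *Ulk1* (0.809), *Mapre3* (0.783) and *Ndst2* (0.78). These lists depended on the 2 libraries that stood apart. Without animals 29 and 33, none of the 5 genes named for *Mylip* was among its 5 most like genes, and *H3f3b*, *Sec22b* and *Lrrc59* (*Insig2*), *Atp23* and *Ptprf* (*Srebf1*), *Cyp51* (*Srebf2*) and *Hmgcs1* (*Insig1*) also left theirs. The greatest falls in r were those of *Sec22b* and *Lrrc59*, to 0.727 each. These correlations are only a description, since the genes compared were read from the same libraries with the same scaling.

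Genes downstream of the SREBPs were read from the same fit, in which 7.27% of all tested genes were higher and 7.03% lower. Of 21 genes of sterol synthesis and transport under SREBP-2, 12 were lower, none was higher and 9 did not pass (median log2 fold change −0.67). The greatest of these decreases were those of *Msmo1* (−1.35, adjusted p = 0.0433, and −1.11, adjusted p = 0.0817, without animals 29 and 33), *Fdps* (−1.34, adjusted p = 0.0112), *Nsdhl* (−1.26, adjusted p = 0.00611) and *Cyp51* (−1.21, adjusted p = 0.0222). *Fdps* makes farnesyl diphosphate, and the other 3 remove methyl groups from sterol intermediates. Of 13 genes of fatty acid and glycerolipid synthesis under SREBP-1, 5 were lower and 1 higher (median −0.26). *Thrsp*, a regulator of lipogenesis, was the lowest (−2.11, adjusted p = 0.00285), followed by *Fasn*, the fatty acid synthase (−0.68, adjusted p = 0.0145), the desaturase gene *Fads1* (−0.60, adjusted p = 0.0066) and *Acly*, which supplies cytosolic acetyl-CoA (−0.55, adjusted p = 0.00531). *Gpam*, which starts glycerolipid synthesis, was higher (0.29, adjusted p = 0.0229). When animals 29 and 33 were left out, the counts were 11 lower of 21, since *Msmo1* no longer passed, and 5 lower and 1 higher of 13. Among all tested genes 17.8% passed in that fit.

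Of 15 genes for proteins that degrade or retain the SREBP machinery, 2 were lower and 1 higher, where 14.3% of all tested genes passed, and the median of their log2 fold changes was −0.0027. *Pgrmc1*, a heme- and sterol-binding membrane protein, was lower (−0.40, adjusted p = 0.0052), as was the ubiquitin ligase gene *Rnf5* (−0.24, adjusted p = 0.0219), while *Paqr3*, a Golgi anchor of SCAP, was higher (0.27, adjusted p = 0.045, and 0.21, adjusted p = 0.0806, without animals 29 and 33). None of the 7 tested genes for other substrates of the proteases passed, and those with the smallest p were *Creb3l3* (0.14, adjusted p = 0.169) and *Atf6* (0.15, adjusted p = 0.216). Around *Mylip*, 1 of 10 genes for LXRs and their targets passed, against 14.3% of all tested genes. It was *Pltp*, the phospholipid transfer protein (−0.66, adjusted p = 0.0321, and −0.63, adjusted p = 0.052, without animals 29 and 33). The median of that list was −0.23. Without these 2 animals 1 of its genes was higher and 1 lower, where 17.8% of all tested genes passed. Of 10 tested genes for lipoprotein receptors and endosomal sorting, *Lrpap1*, a chaperone of the receptor family, was lower (−0.19, adjusted p = 0.0257), with a list median of −0.14. Without the 2 animals 2 of these genes were lower, and *Lrpap1* was not one of them (−0.16, adjusted p = 0.0582).

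**Figure D4:**
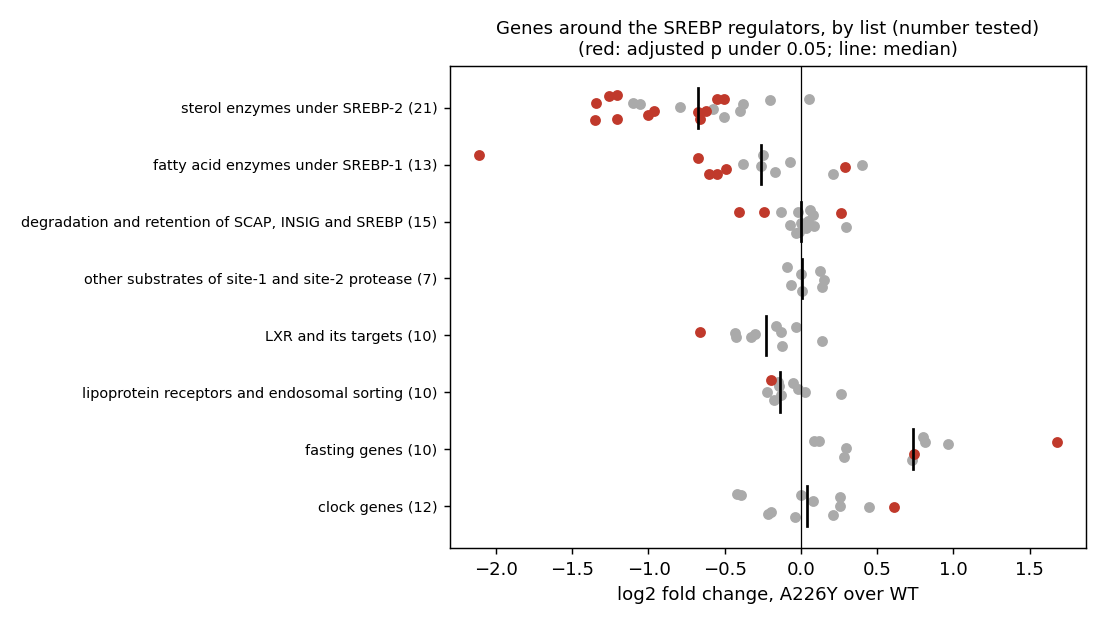
Log2 fold changes, A226Y over WT, of the genes around the members, each point a gene, with the number tested in brackets and a black line at the median. Red points passed an adjusted p of 0.05; the sterol list lies mostly below 0 (median −0.67), the fasting list above 0 (median 0.74), and the protease substrates centre near 0.

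Because *Insig2* and *Srebf1* respond to feeding, genes known to rise on fasting were read beside them. All 10 genes of a fasting list had positive log2 fold changes, with a median of 0.74, and 2 passed, *Igfbp1* (1.68, adjusted p = 0.0283) and *Ppargc1a*, a coactivator of gluconeogenesis (0.74, adjusted p = 0.00539). The summed level of all 10 was 13380 to 24140 CPM in A226Y and 8408 to 17540 CPM in WT, and 2 of 10 passed where 14.3% of all tested genes did. With animals 29 and 33 left out, 5 of 10 passed, all higher, where 17.8% of all tested genes did. Animal 29, which had the highest *Insig2*, had the lowest fasting sum of the A226Y mice. Of 12 tested clock genes, *Clock* was higher (0.61, adjusted p = 0.000932) and 11 did not pass. Of these, *Nr1d2* passed without animals 29 and 33 (adjusted p = 0.0334). Of the 12 log2 fold changes 6 were positive, and *Per3* had −0.42 (adjusted p = 0.057) and *Nr1d1* 0.45 (adjusted p = 0.252). Summed levels were 564 to 870.5 CPM in A226Y and 549 to 881 CPM in WT. Changes in opposite directions cancel in such a sum. The part of feeding or time of day in the members' changes was not tested.

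Markers of the cell types in liver were read beside these values. Among all tested genes 14.3% passed, and 17.8% without animals 29 and 33. Of 8 hepatocyte markers, *Cps1* was higher (0.55, adjusted p = 0.0137) and *Asgr1* lower (−0.31, adjusted p = 0.0155). Of 9 Kupffer cell markers *Clec4f* was lower (−0.65, adjusted p = 0.0261), 8 of 9 log2 fold changes were negative, and the summed level was 323 to 1334 CPM in A226Y and 494 to 1007 CPM in WT. Without animals 29 and 33, 6 of the 9 Kupffer cell markers were lower. Of 8 stellate cell markers 3 collagen genes were lower, *Col1a1* (−0.77, adjusted p = 0.0162), *Col3a1* (−0.60, adjusted p = 0.00516) and *Col1a2* (−0.33, adjusted p = 0.0397). The other 5 did not pass, and 3 of the 8 log2 fold changes were positive. *Dcn* had the highest level of the list (246 CPM in A226Y, 218 CPM in WT), with a log2 fold change of 0.18 (adjusted p = 0.0913). Sums were 312.5 to 372 CPM in A226Y and 304.5 to 383 CPM in WT. No marker passed among 7 endothelial, 5 cholangiocyte and 8 leukocyte genes, nor did the 1 of 6 adipose and pancreas genes that was tested. Without animals 29 and 33 a leukocyte marker passed, *Cd52* (−0.49, adjusted p = 0.0267), as did the hepatocyte marker *Ttr* (−0.19, adjusted p = 0.0449). The lowest p in these lists were those of *Clec4g* (adjusted p = 0.11) and *Egfl7* (0.181), *Krt19* (0.147) and *Epcam* (0.44), *Cd52* (0.158) and *Ighm* (0.219), and *Cela2a* (0.589). No listed marker, tested or not, was at 0 in all mice, and the part of cell composition in the members' changes was not tested. Only RNA was measured in these libraries, so the cleavage of SREBP precursors is not shown by these values.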

How the data were processed

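Liver RNA of 10 A226Y and 8 WT mice was analysed, 1 library per mouse. The authors deposited raw counts, a whole number for each Ensembl gene in each mouse, with no normalization. The methods name RSEM for quantification, whereas the submitters' processing notes list bcl2fastq, MultiQC, fastp, STAR, featureCounts and GRCm38; strand use was not given in the sources used here. Reads were 50 bases long and single-end. Of 22524 identifiers, 22214 were found in GENCODE M21 (GRCm38), the source of symbols, positions and exon lengths.

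Genes reaching 10 counts in 50% or more of the mice of either genotype were tested with edgeR 4.0.16 (R 4.3.3): TMM scaling, quasi-likelihood fit and two-sided test, no covariates, Benjamini-Hochberg adjustment over 13353 genes. The standard error is the log2 fold change over the square root of F. CPM use TMM-scaled library sizes, and log2 CPM a prior count of 2. Single values were compared with exact permutation tests over all 43758 divisions of the mice (scipy 1.17.1), and correlations with all orders for 8 mice and 100000 resamples for 10. Total counts were at least 23850565, and the part of counting noise in the spread of single genes was not measured. No 2 mice of one genotype had counts within sampling noise (chi-square per degree of freedom at least 19.2).

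Members and lists were chosen with earlier results of these data known. Named are all 8 members, *Rps2*, the called genes of each list (at most the 4 with the greatest absolute log2 fold change, or the 2 lowest p where none was called), *Yy2* and *Rai1*, added after their overlap was seen, and the 5 genes most like a member. Ratios between members, and the fit without animals 29 and 33, were added after the data were seen. Alternatives were RLE, upper-quartile and total-count scaling, other filters, robust fits, DESeq2 1.42.0, limma-voom 3.58.1, 4 surrogate variables (sva 3.50.0), loess offsets on exon length or GC content, and each mouse left out. The procedures were tested on simulated counts. *Rps2*-loxP mice and protein data were not used here, and some single genes are not reported.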

Additional observations from a re-analysis of the deposited data

How the results depend on the processing

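The directions of *Srebf1*, *Srebf2*, *Scap*, *Insig1*, *Insig2*, *Mylip* and *Mbtps2* were kept in all 13 other settings and with each of the 18 mice left out, and *Insig2* passed in all of them. With surrogate variables 248 genes (against 1910) and 1 member (against 5) passed, with *Insig1* at −0.49 (adjusted p = 0.17), and the cause was not tested. The number of members was 4 with the GC offset and 6 with DESeq2 or the length offset. With total counts only, 67.9% of the called genes were higher, against 50.8%. With 1 mouse left out, 1255 to 2560 genes and 4 to 6 members passed; the lowest number of genes was without WT animal 14, and without A226Y animal 29 it was 2560. The log2 fold change of *Mbtps1*, −0.01, turned positive with total counts only (0.034), with the GC offset (0.0084) and without animals 29 and 33 (0.025), and ran from −0.037 to 0.012 with 1 mouse left out. With both animals left out 2363 genes passed. No paired or blocked analysis was made, because litter, cage and day of collection were not given in the sources used here. The lowest count of a member was 230, for *Mbtps2* in A226Y animal 5, and the effect of depth on the members was not tested.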
